A study of Homo sapiens with 2 samples.

Results

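Drug efflux pumps are membrane proteins of the ATP-binding cassette (ABC) family that use ATP to move drugs, conjugates and other foreign compounds out of the cell. The genes described here are ABCB1, ABCC1, ABCC2, ABCC3, ABCC4, ABCC5 and ABCG2, taken by gene symbol from the platform annotation of the array. Of these 7 genes, 6 had a feature (a spot of probe DNA) on the array and 4 had one with a ratio other than exactly 0 on both arrays. They held 21 of the 31332 features with 1 annotated gene, 17 of them measured on both arrays, among 21068 such features and 12842 genes measured in all.

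COLO320 cells come from a human colorectal tumour and are known for neuroendocrine traits. They had received 100 nM of siRNA 6 or siRNA 8, which are different constructs against CDX2, or a control siRNA without a target, and were harvested 24 h after their medium had been renewed. RNA of siRNA 6 or siRNA 8 cells (Cy5) and time-matched control RNA (Cy3) shared 1 two-colour Agilent array per siRNA, so each value is a log2 ratio of CDX2 siRNA over control siRNA and the 2 arrays are the replicates (n = 2 throughout). A ratio gives no level, so the pumps cannot be ranked by abundance and the cell line's marker genes could not be checked for presence. The number of arrays limits the precision, the dyes were not swapped, and the control's own spread was not measured.

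P-glycoprotein, the product of ABCB1, sits in the apical membrane of enterocytes, exports a wide range of hydrophobic drugs into the gut lumen and is a known cause of multidrug resistance in tumours. ABCG2, the breast cancer resistance protein, has a single set of ABC and membrane domains and works as a dimer in the same membrane. The ABCC pumps, or multidrug resistance proteins, export glutathione, glucuronide and sulfate conjugates and, in the case of ABCC4 and ABCC5, cyclic nucleotides and nucleotide drugs. CDX2, a homeobox factor, sets the identity of the intestinal epithelium, and ABCB1 has been linked to it in intestinal cells.

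The start regions of the genes that passed the test as lower on the arrays, ABCB1 and ABCG2, are shown because CDX2 is a DNA-binding factor. The RefSeq promoter table (GRCh38.p14) gives 2 starts for ABCB1 and 5 for ABCG2. Its windows span 250 bases before to 50 bases after a start. Capitals mark TTTAT (the core of the sequence CDX2 binds), CCAAT (the box bound by NF-Y) and GGGCGG (a GC box bound by SP1), each searched on both strands, that is, together with its reverse complement. Overlapping matches were counted separately. Both ABCB1 windows and 1 of the ABCG2 windows, picked because it holds a match, on the minus strand of their chromosomes and written 5′ to 3′ along the gene, read as follows.
ABCB1, upstream start, chr7:87713246-87713545: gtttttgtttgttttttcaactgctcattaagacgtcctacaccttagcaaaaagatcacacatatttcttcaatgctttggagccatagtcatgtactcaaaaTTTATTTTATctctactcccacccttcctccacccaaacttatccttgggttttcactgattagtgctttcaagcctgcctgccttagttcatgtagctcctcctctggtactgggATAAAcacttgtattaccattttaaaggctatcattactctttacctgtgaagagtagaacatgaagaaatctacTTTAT
ABCB1, downstream start, chr7:87600835-87601134: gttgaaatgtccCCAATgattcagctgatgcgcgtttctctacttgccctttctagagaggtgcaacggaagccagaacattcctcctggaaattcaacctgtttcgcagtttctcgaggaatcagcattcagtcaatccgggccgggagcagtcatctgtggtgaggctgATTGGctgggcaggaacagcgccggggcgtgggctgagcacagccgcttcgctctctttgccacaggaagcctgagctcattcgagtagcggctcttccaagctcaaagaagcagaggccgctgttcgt
ABCG2, chr4:88158810-88159109: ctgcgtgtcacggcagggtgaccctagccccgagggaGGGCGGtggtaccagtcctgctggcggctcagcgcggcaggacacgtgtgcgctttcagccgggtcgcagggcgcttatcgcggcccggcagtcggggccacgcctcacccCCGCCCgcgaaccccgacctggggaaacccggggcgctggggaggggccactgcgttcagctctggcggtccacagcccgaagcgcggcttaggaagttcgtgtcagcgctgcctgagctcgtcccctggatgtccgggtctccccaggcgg

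The upstream ABCB1 window held TTTAT at 4 places, beginning 146, 141 and 30 bases before the start and 45 bases after it, and had a GC content of 37.7%. The downstream ABCB1 window held no TTTAT and had CCAAT at 2 places, 238 and 79 bases before the start, at a GC content of 55.3%. The ABCG2 window printed here held GGGCGG 213 and 102 bases before its start. None of the 5 ABCG2 windows held TTTAT. Among the other pump genes with a window, TTTAT was present in those of ABCC2 and ABCC5 and not in that of ABCC4. Of all 35116 windows in the table, 34.9% held TTTAT, 34.6% CCAAT and 45.0% GGGCGG. A match of this kind is a description of the letters and not a binding site, and the array does not tell which start a transcript came from.

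The first comparison asks which pump transcripts differed between CDX2 siRNA and control siRNA. ABCB1 fell to 49.2% of control and ABCG2 to 27.7%, each with both siRNAs. ABCC5 passed the threshold as higher through 1 of its 4 features, ABCC4 did not pass, and ABCC2 and ABCC3 were listed at exactly 0. The knockdown itself was seen in CDX2, with siRNA 6 at a log2 ratio of -1.44 and siRNA 8 at -1.41, or 37.3% of control in the mean (limma, adjusted p = 0.00164). Of its 2 features, 1 stood at -1.64 with siRNA 6 and -1.46 with siRNA 8. The other stood at -1.23 and -1.36, so the features ordered the siRNAs differently.

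Of the 4 pump genes tested, 2 fell, 1 rose and 1 did not pass an adjusted p of 0.05 in limma. Of all 12842 genes, 40.7% passed, 28.6% lower and 12.1% higher. The median log2 ratio was -0.73 over the 4 pumps and -0.13 over all genes. By size alone, 2 of the 4 pumps, ABCB1 and ABCG2, were at least 1.5-fold lower on both arrays and 0 were at least 1.5-fold higher. Of all genes 26.2% met this rule, 18.4% lower and 7.8% higher. With 4 genes, the members' share was not tested against that of all genes. Since limma takes the siRNAs as replicates, with 1 residual degree of freedom, the p-values reflect no spread other than that between these arrays. When an exact 0 was taken as a true ratio, 0 of 6 pump genes passed in limma (2 at an unadjusted p under 0.05), and ABCB1 then had an adjusted p of 0.104 and ABCG2 one of 0.114.

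**Figure D1:**
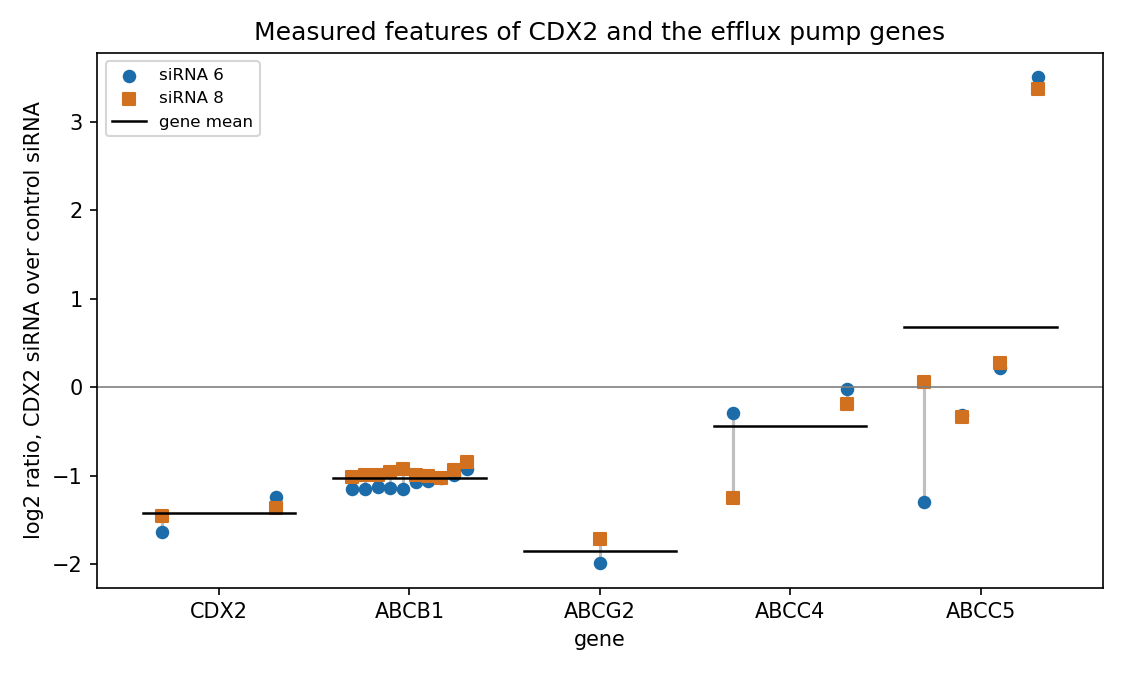
Log2 ratio of CDX2 siRNA over control siRNA (vertical axis) for each measured feature of CDX2 and of the 4 measured pump genes (horizontal axis), with siRNA 6 as circles, siRNA 8 as squares, a grey line joining the arrays and a black bar at the gene mean. ABCB1 features lie close together around -1.02, whereas those of ABCC5 run from -0.61 to 3.43 (means of both arrays).

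ABCB1 was represented by 10 features, all annotated to the transcript NM_000927 and all measured on both arrays. The annotation used here does not tell repeat spots of 1 probe from different probes. With siRNA 6 their log2 ratios ran from -1.15 to -0.93 with a median of -1.10. With siRNA 8 they ran from -1.02 to -0.84 with a median of -0.99. As a share of control, that is 44.9% to 52.6% for siRNA 6 and 49.2% to 55.7% for siRNA 8. Every one of the 10 features thus stood below control on both arrays, and their ranges on the arrays overlapped.

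The mean over the features was -1.08 with siRNA 6 and -0.97 with siRNA 8. ABCB1 therefore had a log2 ratio of -1.02 ± 0.0791 (SD, n = 2), 2.03-fold lower than control or 49.2% of it (limma, adjusted p = 0.00334, lower on 2 of 2 arrays). Of the genes tested, 1502 had a lower mean ratio, which puts ABCB1 at percentile 11.7. Tested one by one across all 21068 features, 10 of 10 ABCB1 features passed as lower, with limma adjusted p from 0.00405 to 0.00622, where 34.7% of all features passed and 23.9% did so as lower. The 10 features share 1 transcript and the same RNA, so they are not 10 replicates of the knockdown.

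**Figure D2:**
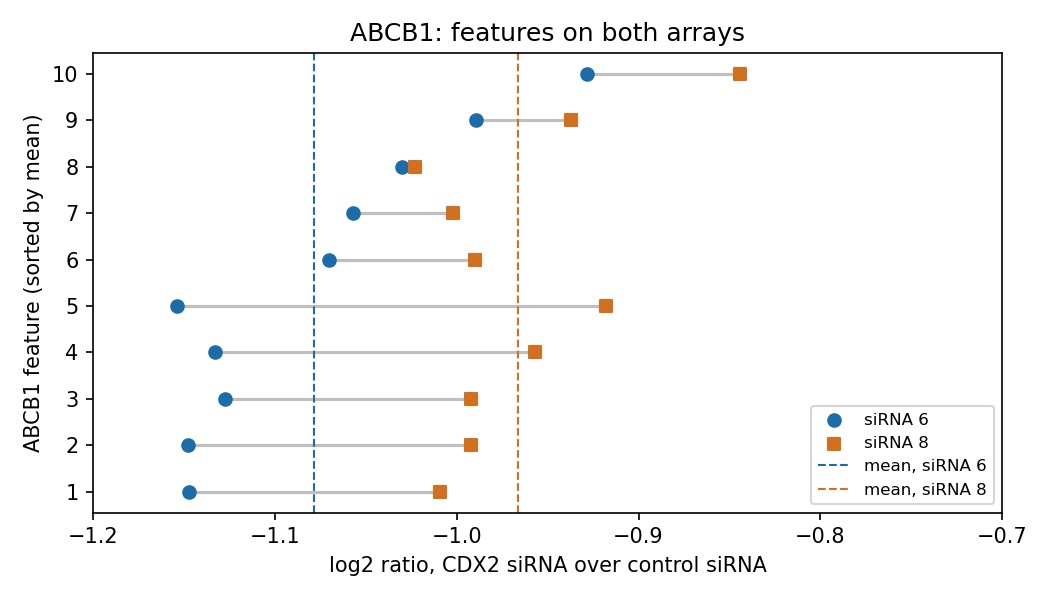
Log2 ratio of CDX2 siRNA over control siRNA (horizontal axis) for the 10 ABCB1 features, sorted by their mean (vertical axis), with siRNA 6 as circles, siRNA 8 as squares and dashed lines at each array's mean. All points lie between -1.15 and -0.84, and siRNA 6 is left of siRNA 8 for each feature.

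The other comparison the design allows is between the constructs. For ABCB1 the ratio was lower with siRNA 6 than with siRNA 8 on 10 of 10 features, by between 0.0069 and 0.24 on the log2 scale and by 0.11 for the gene mean. The SD over single features was 0.0775 with siRNA 6 and 0.0541 with siRNA 8. With 1 array per siRNA this difference could not be tested. The siRNA 6 array also had the lower median over all genes, -0.136 against -0.119 for the siRNA 8 array. How many other features were lower with siRNA 6 was not counted, so the direction is not shown to be particular to ABCB1. Across the 10 features, which share the transcript and the RNA, Pearson's r between the arrays was 0.51 and Spearman's rho 0.091.

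The precision of ABCB1 can be set beside that of other transcripts that were spotted as often. On this array 172 accessions had 10 or more measured features. The SD over the features of an accession had a median of 0.0739 for siRNA 6 and 0.0791 for siRNA 8, and the SD of ABCB1 exceeded that of 88 and 72 of them, respectively. The median absolute difference between the siRNAs was 0.11 over the 172 accessions, equal to that of ABCB1 at this rounding, and 81 of them had a smaller one. In mean ratio 17 of the 172 were lower than ABCB1. At least 1.5-fold lower on both arrays were 23 of the 172, ABCB1 among them, and at least 1.5-fold higher were 10. ABCB1 thus lay toward the low end of the densely spotted transcripts, with a spread between spots and between siRNAs near the middle.

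**Figure D3:**
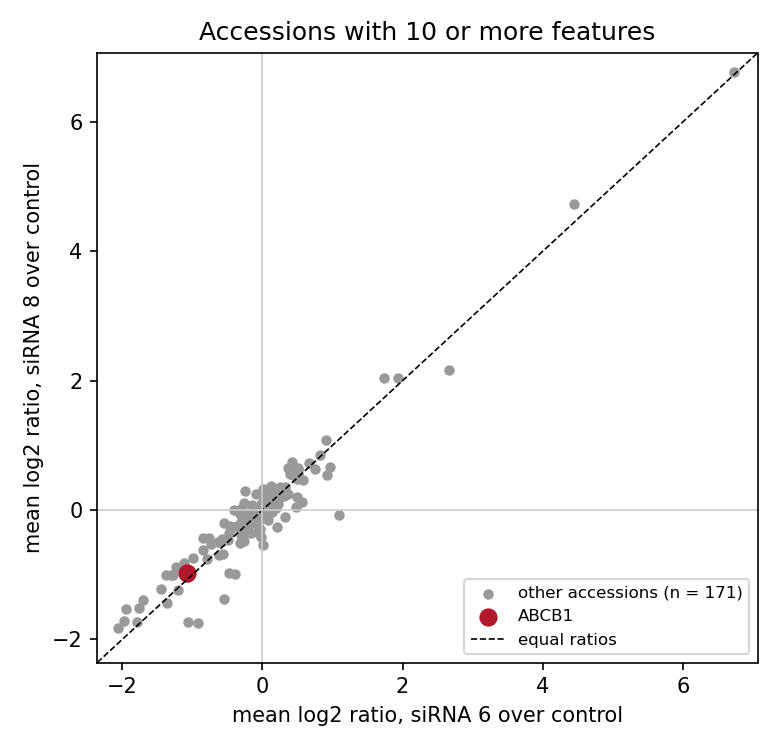
Mean log2 ratio with siRNA 6 (horizontal axis) against that with siRNA 8 (vertical axis) for the 172 accessions with 10 or more measured features, 1 point each, with ABCB1 in red and a dashed line of equal ratios. ABCB1 lies at -1.08 and -0.97, close to the line, with 17 of the accessions lower in mean.

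The 3 genes with 2 or more measured features whose pair of log2 ratios lay nearest to that of ABCB1, among 4932 such genes and over 2 arrays, were CLCC1, a chloride channel protein of the endoplasmic reticulum, RAB22A, an endosomal RAB GTPase, and RFX3, a transcription factor of ciliated cells. Their Euclidean distances from ABCB1 were 0.0174, 0.0178 and 0.0223. The likeness holds for gene means and not for single features. The 2 features of CLCC1 stood at -1.97 and -0.054, and those of RAB22A at -2.19 and 0.12. Those of RFX3 stood at -1.25 and -0.80.

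ABCG2 was represented by 1 feature. It read -1.99 (log2 ratio) with siRNA 6 and -1.71 with siRNA 8, or 25.2% and 30.5% of control. Both arrays lay below control and below every ABCB1 feature. The mean was -1.85 ± 0.193 (SD, n = 2), 3.61-fold lower than control (limma, adjusted p = 0.00159), at percentile 2.49 of all genes, with 320 genes lower. The difference between the siRNAs, 0.27, exceeded that of 73.0% of genes. As for ABCB1 and for the median over all genes, the value of siRNA 6 was the lower one.

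ABCC5 was represented by 4 features of 3 accessions, and they did not move together. A feature annotated to NM_005688 had log2 ratios of 3.50 with siRNA 6 and 3.37 with siRNA 8, or 10.8-fold higher than control in the mean (limma over features, adjusted p = 0.000814). The other feature of the same accession stood at 0.22 and 0.28 and did not pass (adjusted p = 0.111). The feature of AW751974, an expressed sequence tag, stood at -0.31 and -0.33 (adjusted p = 0.0620). The feature of BC015334, a cDNA clone, stood at -1.29 with siRNA 6 and 0.061 with siRNA 8 (adjusted p = 0.269). Only the first of the 4 features passed, and the features of AW751974 and BC015334 had means below 0 where those of NM_005688 had means above 0.

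The gene value of ABCC5, the mean of these features, was 0.53 with siRNA 6 and 0.84 with siRNA 8. Its mean of 0.69 ± 0.222 (SD, n = 2), or 1.61-fold, passed in limma (adjusted p = 0.0167). Taking the median of the features gave 0.061 (adjusted p = 0.665), and leaving out features at least 10-fold from control on both arrays turned the direction, to -0.23 (adjusted p = 0.274). The value rose to 1.84 with NM_ accessions alone (adjusted p = 0.00146). It rose to 1.12 without features differing over 1.5-fold between the arrays (adjusted p = 3.31e-07). Both settings keep the 10.8-fold feature, and the second selects on the spread that limma takes as error. Its smaller p-value therefore adds no support for a rise. The features of ABCC5 spanned 4.05 on the log2 scale, against a median span of 0.69 over the 503 genes with 4 or more measured features, of which 17 spanned at least as much. The gap of 3.19 between the NM_005688 features was reached by 45 of the 3087 accessions with 2 measured features (1.46%), whose median gap was 0.33. Features at least 10-fold higher on both arrays made up 1.75% of all measured features, or 368, against 8 at least 10-fold lower.

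ABCC4 was represented by 3 features of NM_005845. The first stood at -0.29 with siRNA 6 and -1.25 with siRNA 8, and the second at -0.018 and -0.19. The third was listed at 0 on both arrays. Both measured features were lower with siRNA 8 than with siRNA 6, by 0.96 and 0.17, the reverse of ABCB1 and ABCG2. The gene value of -0.15 for siRNA 6 and -0.72 for siRNA 8 gave a mean of -0.44 ± 0.402 (SD, n = 2), which did not pass (limma, adjusted p = 0.116). The difference between the siRNAs, 0.57, exceeded that of 92.9% of genes.

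ABCC2, the canalicular and apical conjugate pump, had 2 features and ABCC3, its basolateral relative, had 1. All 3 were listed at exactly 0 on both arrays, as were 16311 of the 45015 features, so no ratio is given for these genes. ABCC1, the founding member of the multidrug resistance proteins, was not analysed here.

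Other ABC transporters, which carry lipids, bile salts, peptides and ions, moved both ways. The 21 tested comprised 2 that rose (9.52%), 7 that fell (33.3%) and 12 that did not pass. Their median log2 ratio was -0.098, set beside 12.1% higher, 28.6% lower and -0.13 over all genes. ABCB11, the bile salt export pump, passed as higher through 1 feature, at 7.55 with siRNA 6 and 7.65 with siRNA 8 (limma, adjusted p = 0.000128). ABCG8 and ABCG5, which form the sterol exporter of enterocytes and hepatocytes as a heterodimer, had ratios of opposite sign. ABCG8 was at 5.75 and 5.72 (limma, adjusted p = 0.000133) and ABCG5 at -1.15 and -0.93 (adjusted p = 0.00425), each with 1 feature. The ABCB11 and ABCG8 features are among the 368 at least 10-fold higher on both arrays, against 8 at least 10-fold lower. No intensities were used, so the control signal of these features is unknown. ABCB8, a transporter of the mitochondrial inner membrane, was at -1.36 and -0.82 with 1 feature (adjusted p = 0.0115). Another 17 members had a feature but no measured ratio.

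Export proteins outside the ABC family had 4 tested members, of which 1 fell (25%, beside 28.6% of all genes) and 3 did not pass. The gene that fell was ATP7A, a copper pump linked to platinum export, at -1.73 and -1.51 (limma, adjusted p = 0.00173). Of 11 proteins that anchor or traffic pumps, 1 rose, 1 fell (9.09% each, beside 12.1% and 28.6% of all genes) and 9 did not pass (median 0.050). CAV1, the caveolin that scaffolds caveolae and has been reported to bind P-glycoprotein, fell to 34.2% of control over 11 features, with -1.70 for siRNA 6 and -1.39 for siRNA 8 (adjusted p = 0.00237). RAB11A, a GTPase of recycling endosomes, rose to 153% of control, but its 2 features stood at 1.10 and 0.12.

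Regulators of pump genes, which include the xenobiotic receptors and the factors bound to the ABCB1 promoter, passed in 8 of 28 cases, 4 higher and 4 lower (14.3% each, beside 12.1% and 28.6% of all genes), with a median of 0.015. PPARG, a lipid-sensing nuclear receptor, was at -1.06 with siRNA 6 and -1.73 with siRNA 8 over 10 features (limma, adjusted p = 0.00947). Its features were scattered, from -2.32 to -0.52 in the mean, and the one at -0.70 did not pass (limma over features, adjusted p = 0.0529). JUN, an AP-1 subunit, was at 0.97 and 0.66 over 10 features (adjusted p = 0.0105). NFYA, the subunit of NF-Y that contacts the CCAAT box, passed as lower at -0.70 and -0.63, but of its 3 features 1 stood at -1.66 and the others at -0.19 and -0.14. ESR1, the estrogen receptor, passed as higher at 0.65 and 0.94 through 1 measured feature, with 10 of its 12 features listed at 0 on both arrays. The SP1 gene did not pass, at -0.16 and -0.36, nor did NFE2L2, the oxidative stress factor that drives ABCC genes, at 0.13 and 0.073. The 11 SP1 features were scattered too, with an SD of 0.79 for siRNA 6 and 0.58 for siRNA 8.

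Genes on either side of efflux also moved both ways. Of all genes, 12.1% passed as higher and 28.6% as lower. Of 10 drug uptake carriers, 4 rose (40%), 2 fell (20%) and 4 did not pass (median -0.11). SLCO4C1 and SLCO2A1, organic anion and prostaglandin carriers, were at 6.49 and 5.29 in the mean with 1 measured feature each. SLC22A7 was 2.31-fold higher and SLCO4A1 stood at 51.0% of control, also with 1 measured feature each. SLCO4C1 and SLC22A7 each had a second feature, listed at 0 on both arrays. The measured features of SLCO4C1 and SLCO2A1 are also among the 368 at least 10-fold higher on both arrays. Of 18 phase I enzymes, 5 rose (27.8%), 3 fell (16.7%) and 10 did not pass (median 0.037). AKR1C1 was 17.0-fold higher, CES1, a carboxylesterase, 2.82-fold and CYP1A1, a target of the aryl hydrocarbon receptor, 2.23-fold, while CYP2W1, a cytochrome P450 found in colorectal tumours, was 2.83-fold lower. Of the 4 AKR1C1 features, 3 were listed at 0 on both arrays, and the measured one is among the same 368.

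Conjugating and glutathione enzymes make the substrates of the ABCC pumps. Among the 27 tested, 5 rose (18.5%), 6 fell (22.2%) and 16 did not pass (median -0.082), where 12.1% of all genes were higher and 28.6% lower. UGT2B4 (28.0-fold) and GSTO2 (17.7-fold) were higher, and GSTM5 (3.37-fold) and UGT2B17 (3.42-fold) were lower. For all 4, a single feature of 2 was measured and the second was listed at 0 on both arrays, and UGT2B and GSTM genes are close paralogs whose probes may share targets. The measured features of UGT2B4 and GSTO2 are also among the 368 at least 10-fold higher on both arrays. No group's share of higher or lower genes was tested against that of all genes.

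**Figure D4:**
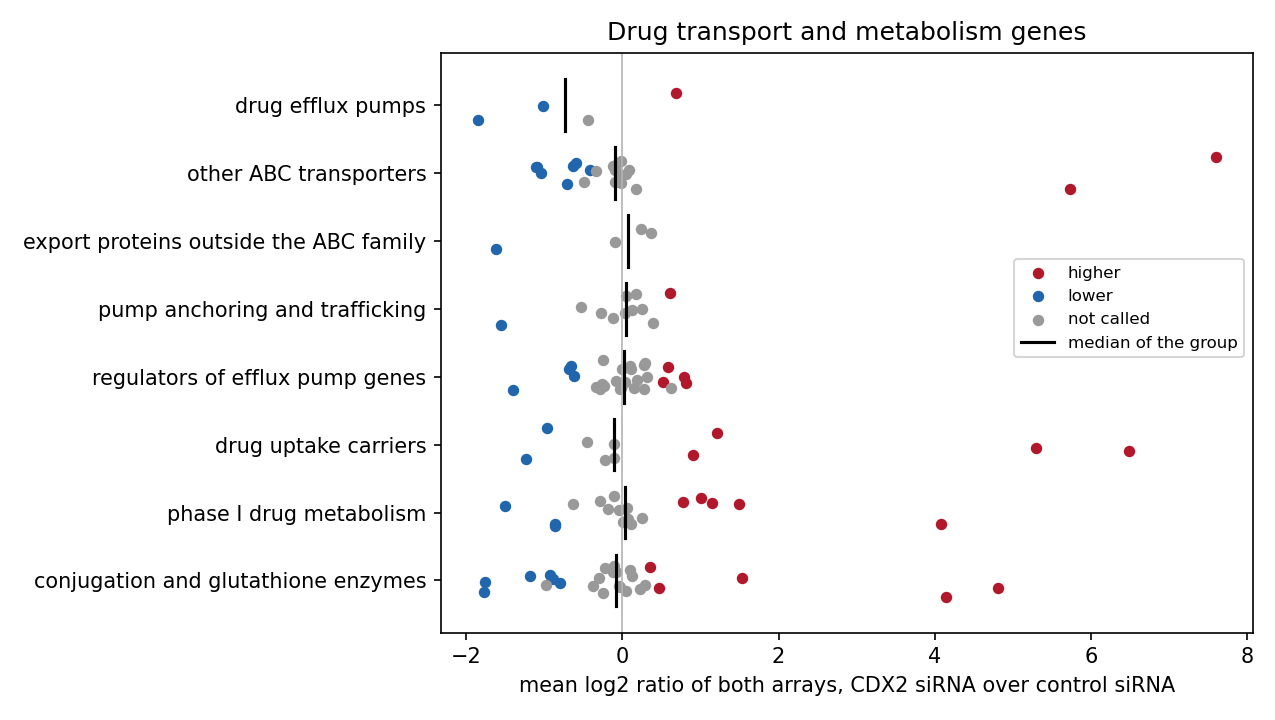
Mean log2 ratio of both arrays (horizontal axis) for each tested gene of the pump set and of 7 related groups (vertical axis, points spread vertically for visibility), coloured by the limma call at an adjusted p of 0.05, with a black bar at each group's median. The bar of the 4 pumps stands at -0.73 and those of the other groups between -0.11 and 0.070.

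Marker genes of cell types were read against the same shares of all genes, 12.1% higher and 28.6% lower. Neuroendocrine markers rose in 1 and fell in 2 of 4 tested (ENO2 at 0.83, SCG3 at -0.57 and CHGA at -0.42 in the mean). Epithelial markers rose in 2 and fell in 1 of 5 (KRT19 at 1.56, KRT8 at 1.33 and EPCAM at -2.08), with the 2 KRT8 features at 2.68 and -0.020. Fibroblast markers rose in 1 and fell in 1 of 5 (COL1A1 at 0.51 and PDGFRB at -1.96). All 3 tested haematopoietic markers, CD14, CD3E and PTPRC, fell, to between 47.8% and 52.9% of control. PTPRC stood at -0.55 with siRNA 6 and -1.37 with siRNA 8, and 4 of its 10 measured features passed on their own. The part of these markers in the fall of ABCB1 and ABCG2 was not tested.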

How the data were processed

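Gene expression in COLO320 cells was measured on 2 two-colour Agilent 44K arrays, 1 per CDX2 siRNA, with control RNA in the second channel. The authors deposited log10 ratios of Cy5 over Cy3, made with Agilent Feature Extraction 9.5.3 per the submitters' processing notes; the base 10 follows from that tool and is stated nowhere else. Background and dye correction are not given in the sources used here. The values were converted to log2, and an exact 0 was read as not measured, a reading no source states. Without intensities, no feature was dropped for being dim or saturated.

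Features with 1 gene in the platform annotation were used (31332 of 45015), and those measured on both arrays were averaged per gene. Genes and, separately, features were fitted in limma 3.58.1 (R 4.3.3) with an intercept-only model and eBayes against 0, adjusted by Benjamini-Hochberg over all 12842 genes or 21068 features. The prior had 2.87 degrees of freedom. The fit was tested on simulated data. The siRNAs were given to different cells. Nothing in the labels says that these were independent experiments or that each array had its own control culture. The p-values may therefore reflect technical spread, and the 2 ratios may not be independent. The members and lists were chosen with earlier results of these data known. Named are CDX2, all members, up to 4 passing genes per list with the largest smaller absolute ratio, and the 3 genes nearest to ABCB1; exceptions are SP1 and NFE2L2, chosen after their values were seen. Promoter sequences are RefSeq's, matched by gene ID for 5 of the 7 pump genes. Alternatives covered centring, scale, quantile normalization, exact zeros, the prior, log base, the feature rule, fold calls, each array alone and 2 restrictions on features chosen after seeing the data.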

Additional observations from a re-analysis of the deposited data

How the results depend on the processing

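The reading of exact zeros decided the calls. With an exact 0 taken as a true ratio, 0 of 18334 genes passed in limma (5218 at an unadjusted p under 0.05), 0 of 6 pump genes (2 at an unadjusted p under 0.05) and 0 of 21 pump features (14). The ratios of CDX2 and ABCB1 were then still -1.42 and -1.02, with limma adjusted p of 0.0676 and 0.104. Under the other tested alternatives the limma adjusted p of ABCB1 ran from 9.03e-07 to 0.00607 and its ratio kept its direction. The former came without features that differed over 1.5-fold between the arrays. That restriction selects on the spread that limma takes as error, so its smaller p-values add no support. Read as log2 in place of log10, the ratio of ABCB1 would be -0.31 with the same adjusted p. The rule of 1.5-fold on both arrays gave 3368 genes where limma gave 5225. Centred on the median, 59.9% of called genes were lower, against 70.2%. ABCC5 reversed to -0.23 without features at least 10-fold from control, fell to 0.061 with the median feature, and rose to 1.84 with NM_ accessions alone and to 1.12 without features differing over 1.5-fold between the arrays. With 1 array left out there was no test and no count, and CDX2 ran from -1.44 to -1.41, ABCB1 from -1.08 to -0.97. No paired analysis was possible because each array already pairs CDX2 siRNA with control RNA and no replicate number is shared between groups. No intensities were used, so signal over background is unknown.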

Other observations

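The neighbours of ABCB1 in the RefSeq gene order were looked at after the pump values were seen. Of the 3 protein-coding genes on each side, all 6 were tested, and 3 passed as lower (limma) and 0 as higher, where 28.6% and 12.1% of all genes did. RUNDC3B, which overlaps ABCB1 in the table, was at -2.54 with siRNA 6 and -1.55 with siRNA 8 (adjusted p = 0.00826). SLC25A40, a mitochondrial carrier, was at -1.12 and -0.97 over 2 features (adjusted p = 0.00344), and CROT, a peroxisomal carnitine transferase, was at -0.97 and -0.46 (adjusted p = 0.0308). ABCB4, the phospholipid exporter next to ABCB1 and its close paralog, was at -0.73 and -0.24 and did not pass (adjusted p = 0.0717). DBF4 was at 0.0068 and 0.13 (adjusted p = 0.598), and TMEM243 did not pass either, at 0.22 and 0.32. The 11 DBF4 features were scattered, with an SD of 0.55 for siRNA 6 and 0.40 for siRNA 8. Around ABCG2, PPM1K passed as higher, at 0.41 and 0.44 (adjusted p = 0.0261), and HERC6 did not pass, at 0.27 and 0.22. Near ABCC4, 1 of 4 tested neighbours passed. It was SOX21, a SOX transcription factor, lower at -2.21 and -1.94 (adjusted p = 0.00135), while TGDS, GPR180 and DNAJC3 did not pass, with means of 0.094, -0.0067 and -0.15. Near ABCC5, 1 of 3 tested passed, MAP6D1, lower at -0.96 and -0.88 (adjusted p = 0.00401), and YEATS2 and PARL did not, with means of 0.25 and -0.13.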
